A study of Mus musculus with 10 samples.

Results

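The genes described here were 32 nuclear receptors and coregulators, chosen by name from the 24411 genes of the liver count table: the retinoic acid, retinoid X, thyroid hormone, vitamin D, steroid and orphan receptors, the PPARs other than Ppara, and 6 coregulators. All 32 were in the table. Of these, 30 reached 1 CPM (a read count scaled to the size of its library) in at least 1 library and were among the 12609 genes tested, 27 of them in all 10 libraries. Vdr, the vitamin D receptor, had 0 to 4 counts per library, and Nr0b1, a receptor of steroid-producing glands that lacks a DNA-binding domain, had 0 counts in all 10 libraries. Neither was tested. Nr4a3 and Nr2f1 passed the filter through a single Mboat7 ASO library each, the group in which both were higher, so the filter itself favoured a difference in them.

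Livers came from male C57BL/6 mice, labelled C57Bl6/J and 8 weeks old at the start, which the study's methods place on a high-fat diet. All 10 received a cET-modified antisense oligonucleotide (ASO), a short strand that directs the breakdown of a matching RNA, injected into the peritoneum at 12.5 mg/kg for 20 weeks. The 5 control ASO mice (replicates 1 to 5) were given an ASO without a target, and their tissue is labelled normal liver. The 5 Mboat7 ASO mice (replicates 6 to 10) were given one of a pair of ASOs against mouse Mboat7. This gene encodes an acyltransferase that forms phosphatidylinositol from lysophosphatidylinositol. The tissue of these 5 mice is labelled severe fatty liver. The labels do not say which ASO was given, and such ASOs also act in fat and in macrophages, so the knockdown need not be limited to hepatocytes. The comparison asks how liver RNA differs when Mboat7 is knocked down under this diet.

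Library totals ran from 25153235 to 28791798 counts. Mboat7 itself averaged 40.8 CPM in control ASO and 3.31 CPM in Mboat7 ASO livers and did not overlap between groups (edgeR log2 fold change -3.63 ± 0.17, adjusted p = 1.29e-06). Summed hepatocyte marker RNA was 138000 to 158000 CPM in control ASO and 90100 to 132000 CPM in Mboat7 ASO livers. Alb, at 93500 to 107000 CPM in control ASO livers, made up most of this sum. Of the 10 hepatocyte markers 6 fell and 1 rose. The 1 that rose was Apob, at 5010 to 6220 CPM in control ASO and 6880 to 8830 CPM in Mboat7 ASO livers. The marker sums of leukocytes, macrophages, neutrophils, sinusoidal endothelial cells and stellate cells had means 1.42 to 11.5 times as high in Mboat7 ASO livers. These sums and the hepatocyte sum passed exact permutation tests adjusted over 8 lists (p = 0.0159 to 0.0212). The lymphocyte sum did not pass (adjusted exact p = 0.0952). The cholangiocyte sum passed, with a mean 1.91 times as high (adjusted exact p = 0.0272), but of 7 cholangiocyte markers tested 1, Spp1, was higher. In whole-liver RNA, fewer cells of a type and less RNA per cell cannot be told apart. Control ASO replicate 2 had the highest leukocyte marker sum of its group (189 CPM, the other 4 at 116 to 140 CPM), and Mboat7 ASO replicates 9 and 10 had the lowest of theirs (179 and 207 CPM, the other 3 at 363 to 471 CPM).

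Nuclear receptors are transcription factors that bind DNA as dimers or monomers, and most of them are switched by small fat-soluble ligands such as retinoic acid, thyroid hormone, steroids or fatty acids. The retinoid X receptors are the shared partners of the retinoic acid, thyroid hormone, vitamin D and PPAR receptors. Without ligand many of these dimers hold corepressors such as NCOR1, which recruit histone deacetylases. Ligand exchanges these for coactivators such as NCOA1, which recruit histone acetyltransferases. In liver these receptors are known for their control of fat and sugar metabolism, mitochondrial genes, vitamin A storage and the daily clock. Orphan receptors are those without an established natural ligand.

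Of the 30 receptors and coregulators tested, 5 were higher in Mboat7 ASO livers and 4 were lower at an edgeR quasi-likelihood false discovery rate (FDR) of 0.05. That was 16.7% and 13.3% of them, beside 21.2% higher and 17.3% lower over all 12609 genes. With at least 1 CPM required in 5 libraries, which left out Nr4a3 and Nr2f1, 4 were higher and 4 lower of 28. Over all genes 20% were then higher and 18.7% lower. The genes that rose were Nrip1, Ncoa1, Ncor1, Nr4a3 and Rarg, and those that fell were Nr2f6, Rxrb, Rxrg and Esrra. Of the 6 coregulators 3 were higher (50%) and none lower. Of the 24 receptors tested 2 were higher (8.33%) and 4 lower (16.7%, near the 17.3% of all genes). The other 21 genes had log2 fold changes from -0.24 to 0.77. The median log2 fold change was 0.09 over the 30 genes and 0.01 over all genes, 15 of the 30 lay within 0.2 of zero, and a single one, Nr4a3, exceeded 1. In 4 of the 30 genes, all called higher, every Mboat7 ASO library lay above every control ASO library, near the 10.5% of all genes. In 3 of the 30, all called lower, every Mboat7 ASO library lay below, near the 10.7% of all genes.

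**Figure D1:**
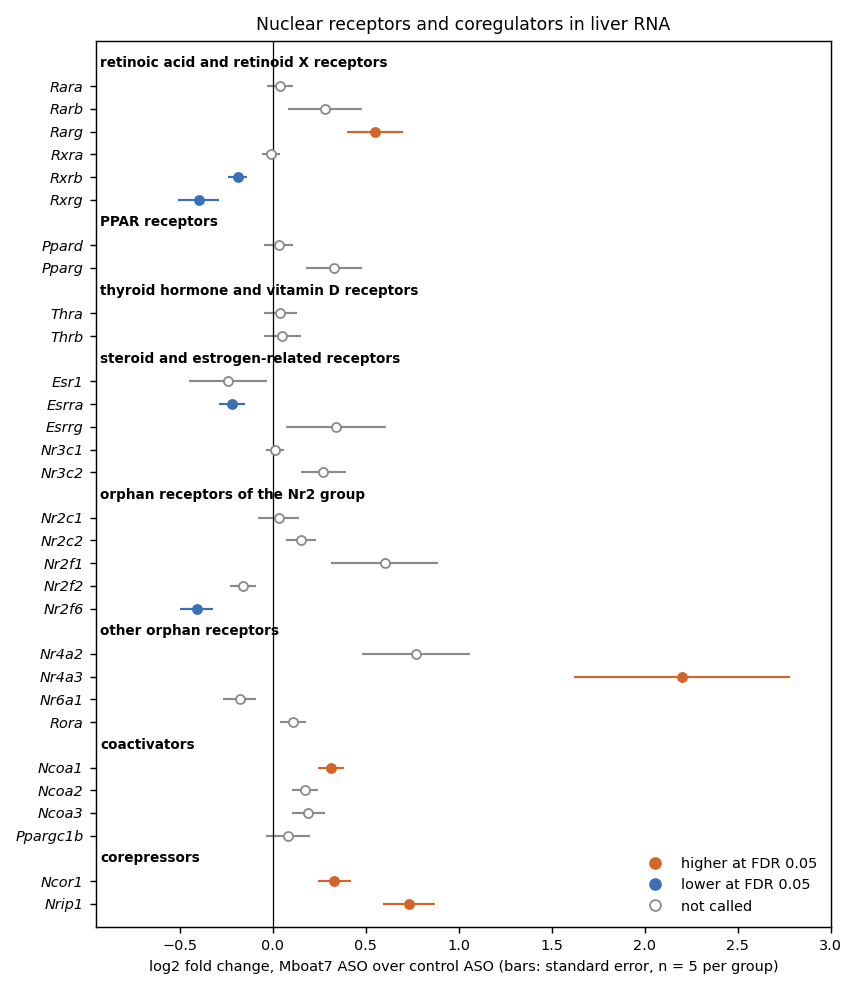
Log2 fold change of Mboat7 ASO over control ASO livers for the 30 genes tested (points, n = 5 per group, bars are standard errors), grouped by role. Filled points mark genes at an edgeR FDR of 0.05, orange higher and blue lower. Most points lie within 0.4 of zero, and Nr4a3 stands alone at 2.20 with the widest bar.

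The levels of these genes, divided by exonic length so that genes can be compared, spanned several orders of magnitude. Rxra, the main retinoid X receptor of hepatocytes, was the most abundant at a mean of 108 CPM per kb in control ASO livers. Nr2f6, an orphan receptor related to the COUP factors, followed at 22.9 CPM per kb. Its highest control library lay far below the lowest Rxra library. Its exons overlap a gene on the opposite strand, so this level is uncertain. Nr3c1, the glucocorticoid receptor, at 11.7, Esrra at 10.8 and Rxrb at 9.80 CPM per kb came next, with library values that overlapped between neighbours. The corepressor Ncor1 stood at 7.39 CPM per kb, above the coactivators Ncoa3 at 3.42, Ncoa2 at 3.16, Ncoa1 at 2.58 and Ppargc1b at 1.56 CPM per kb. Nrip1 was low at 0.383 CPM per kb, and Nr4a2, Nr2f1, Nr4a3 and Vdr were the lowest genes with any count.

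**Figure D2:**
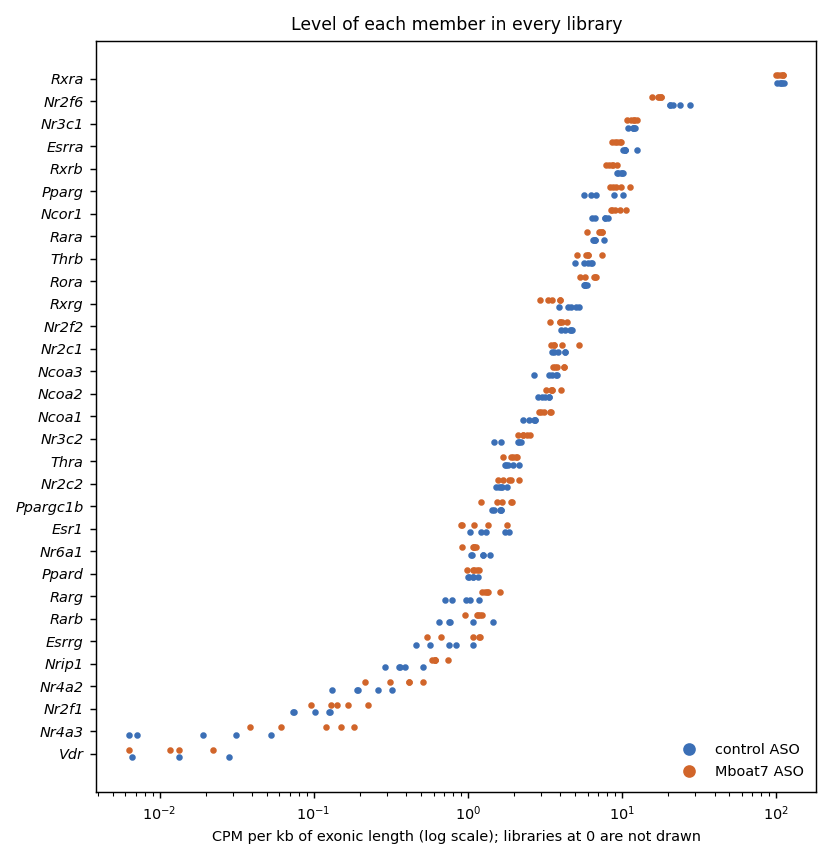
Level of each gene in every library, in CPM per kb of exonic length on a log scale (blue control ASO, orange Mboat7 ASO, 5 points each, libraries at 0 not drawn). Rxra lies near 108 and Nr4a3 below 0.2, and for most genes the colours overlap. Nr0b1, with 0 counts throughout, is not shown.

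Among the retinoic acid receptors, Rarg rose while Rara and Rarb were not called. Rarg (chr15:102234938-102257517, minus strand, GRCm38) encodes the gamma receptor. It measured 3.02, 5.05, 4.17, 4.41 and 3.35 CPM in control ASO replicates 1 to 5 and 6.91, 5.55, 5.70, 5.25 and 5.76 CPM in Mboat7 ASO replicates 6 to 10. The groups did not overlap, although the highest control library, replicate 2, came close to the lowest Mboat7 ASO library. This was a log2 fold change of 0.55 ± 0.15 (n = 5 per group, edgeR adjusted p = 0.0147). Rara, the alpha receptor and the most abundant of these 3 per kb, had a log2 fold change of 0.04 ± 0.07 (adjusted p = 0.65). Rarb, the beta receptor, had one of 0.28 ± 0.20 (adjusted p = 0.279). Its 5 Mboat7 ASO libraries lay between 5.05 and 6.56 CPM, and its control libraries were spread from 3.42 to 7.63 CPM with replicate 2 highest. Rarb shares 1793 of its 5265 exonic bases with Top2b on the opposite strand, so its value is uncertain. Without control replicate 2 the log2 fold change of Rarb was 0.49 and passed (edgeR adjusted p = 0.0238).

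The retinoid X receptors split differently: the less abundant Rxrb and Rxrg fell, and Rxra was not called. Rxrb (chr17:34031812-34038399, plus strand), which is expressed in most tissues, measured 37.0, 39.4, 40.7, 37.7 and 39.9 CPM in control ASO and 32.6, 34.3, 37.0, 31.6 and 34.7 CPM in Mboat7 ASO livers. The groups only just separated, since the lowest control library and the highest Mboat7 ASO library round to the same value. Its log2 fold change of -0.19 ± 0.05 passed (edgeR adjusted p = 0.0149). Rxrg (chr1:167598384-167639623, plus strand), best known from muscle and brain, measured 12.2, 8.98, 11.6, 10.7 and 10.3 CPM in control ASO and 9.07, 6.80, 8.10, 7.67 and 9.12 CPM in Mboat7 ASO livers. Control replicate 2 fell among the Mboat7 ASO libraries, so the groups overlapped. Rxrg fell by 0.40 ± 0.11 on the log2 scale (edgeR adjusted p = 0.0150). Rxra averaged 588 ± 21.3 CPM (SD, n = 5) in control ASO and 585 ± 26.5 CPM (SD, n = 5) in Mboat7 ASO livers, with a log2 fold change of -0.01 ± 0.05 (adjusted p = 0.909).

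The make-up of each family can be given in shares. As a share of the summed CPM per kb of the family, Rxra made up 88.1% ± 0.644 of retinoid X receptor RNA in control ASO and 89.8% ± 0.747 in Mboat7 ASO livers (SD, n = 5). Rarg made up 10.8% ± 2.07 of retinoic acid receptor RNA in control ASO and 14.4% ± 1.73 in Mboat7 ASO livers, and Rara 78.5% ± 5.09 and 73.7% ± 1.82. These shares are descriptions, and no test was run on them. The calls of Rxrb and Rxrg were lost when no normalization factor was applied (log2 fold changes of -0.04 and -0.24), and that of Rxrg also when the trend with gene length was removed (-0.27, adjusted p = 0.0726).

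The promoter sequences of the retinoid genes are shown because Rarb and Cyp26a1, whose product degrades retinoic acid, are textbook targets of the retinoic acid receptors. The sequences are RefSeq windows on GRCm38.p6 and were searched on both strands over the 250 bases before each start site, with capitals marking the match. The repeat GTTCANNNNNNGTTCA, in which N is any base, occurred in 22 of 32851 windows (0.07%), and in a single window among these receptors and coregulators. That window was the one of Rarb, at 52 to 37 bases before the start, and Cyp26a1 held the repeat on the other strand, at 32 to 17 bases before its start. The core hexamer AGGTCA, common to most nuclear receptor sites and contained in several longer motifs, occurred in 14.0% of all windows and in 8 of the 45 windows found for 27 of the 32 genes (17.8%). Of the 9 genes called, Rarg and Rxrg held it, at 225 to 220 and 88 to 83 bases before a start. A match describes letters and does not show that a receptor binds there.
Rarb, chr14:16575477-16575568, minus strand: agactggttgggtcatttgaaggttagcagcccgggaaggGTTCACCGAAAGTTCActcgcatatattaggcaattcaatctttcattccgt
Cyp26a1, chr19:37697736-37697807, plus strand: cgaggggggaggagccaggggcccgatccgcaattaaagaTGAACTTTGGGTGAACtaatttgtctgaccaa
Rarg, chr15:102257702-102257772, minus strand: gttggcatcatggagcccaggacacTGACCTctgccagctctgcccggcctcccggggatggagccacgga
Rxrg, chr1:167618137-167618222, plus strand: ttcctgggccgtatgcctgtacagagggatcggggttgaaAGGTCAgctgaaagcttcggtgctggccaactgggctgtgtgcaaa

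Several genes that handle vitamin A fell. Of 20 genes for retinoid transport, storage and metabolism 14 were tested, of which 6 fell and 1 rose (42.9% and 7.14%, against 17.3% and 21.2% of all genes). Their median log2 fold change was -0.20 and their median exonic length 2.79 kb against 4.44 kb over all genes. With the length trend removed 6 fell and 1 rose, beside 14.7% and 17.3% of all genes. Dhrs3, which reduces retinaldehyde back to retinol, fell from 161 to 106 CPM on average (log2 fold change -0.60 ± 0.07, edgeR adjusted p = 0.00134). Ttr and Rbp4, the blood carriers of retinol, fell by 0.52 ± 0.08 and 0.52 ± 0.11 on the log2 scale (adjusted p = 0.00205 and 0.00457). Rdh10, which oxidizes retinol, fell by 0.22 ± 0.06. Ttr also stands in the hepatocyte marker list, of which 6 of 10 genes fell and 1 rose. Cyp26a1, the gene whose promoter is shown above, had a mean of 7.32 CPM in control ASO and 3.32 CPM in Mboat7 ASO livers, with overlapping groups (log2 fold change -1.14 ± 0.34, edgeR adjusted p = 0.022). The gene that rose was Lrat, the enzyme that esterifies retinol for storage, at 0.63 ± 0.19 (adjusted p = 0.0234), a call lost without control replicate 1 or 3 or Mboat7 ASO replicate 6 or 10. The count that fell was 4 without control replicate 1 or without normalization factors, beside 13.7% and 6.1% of all genes. Lrat is also one of the 10 stellate cell markers, of which 9 rose, with a summed level of 277 to 441 CPM in control ASO and 457 to 693 CPM in Mboat7 ASO livers. The part of these cell types in the changes of Lrat and Rarg was not tested.

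Neither PPAR in the group was called, while 4 targets of PPARgamma rose. Pparg, the fat-storage receptor that is scarce in lean liver, measured 26.2, 30.1, 16.9, 18.7 and 20.0 CPM in control ASO and 33.2, 24.9, 26.9, 29.1 and 26.0 CPM in Mboat7 ASO livers. Control replicates 1 and 2 lay among the Mboat7 ASO libraries and the other 3 control libraries below all of them. Pparg had a log2 fold change of 0.33 ± 0.15 (edgeR test, adjusted p = 0.105). Leaving out control replicate 2 brought it past the threshold at 0.45 (adjusted p = 0.0162). Ppard, the widely expressed delta receptor, stayed at 0.03 ± 0.08 (adjusted p = 0.787). Of 8 PPARgamma target genes of fatty liver 4 rose (50%, against 21.2% of all genes) and none fell, with a median log2 fold change of 0.85, while Plin2, Plin4, Cidec and Mogat1 did not pass. Without control replicate 2, 7 of the 8 passed, and 24.5% of all genes were then higher. The 4 were Fabp4, a fatty acid carrier of fat cells and macrophages, from 12.7 to 24.6 CPM (0.95 ± 0.17, adjusted p = 0.00337), and Cd36, a fatty acid transporter, from 224 to 333 CPM (0.58 ± 0.14, adjusted p = 0.0109), both without overlap. Lpl, which cleaves circulating triglyceride, and Cidea, a lipid droplet protein, rose with overlapping groups, by 1.35 ± 0.32 and 3.25 ± 0.84 (adjusted p = 0.00868 and 0.0124). Fabp4, Cd36 and Lpl are also expressed by macrophages, and the macrophage marker sum was 172 to 373 CPM in control ASO and 300 to 980 CPM in Mboat7 ASO livers, with 10 of 12 markers higher. Its part in these changes was not tested.

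Neither thyroid hormone receptor was called. Thrb, the main thyroid hormone receptor of liver, measured 44.6, 37.0, 41.9, 46.8 and 47.1 CPM in control ASO and 37.7, 44.6, 54.9, 44.6 and 43.3 CPM in Mboat7 ASO livers. The groups were interleaved, with the highest library being Mboat7 ASO replicate 8. Its log2 fold change was 0.05 ± 0.10 (edgeR adjusted p = 0.712) and that of Thra, the alpha receptor, 0.04 ± 0.09 (adjusted p = 0.736). Thra shares 263 exonic bases with Nr1d1 on the opposite strand, and as the strand used for counting is not given, reads there cannot be assigned. Of 8 tested genes for thyroid hormone activation and response 2 rose (25%, near the 21.2% of all genes), namely Cpt1a, the gate of fatty acid entry into mitochondria (0.40 ± 0.09, adjusted p = 0.00701), and Gpd2, a glycerol phosphate shuttle enzyme (0.50 ± 0.12, adjusted p = 0.0102). The corepressor Hr was not called (0.36 ± 0.41). Of the 3 vitamin D genes tested 1 fell (33.3%, against 17.3% of all genes). Without Mboat7 ASO replicate 7 it was 2, beside 16.1% of all genes. Cyp27a1, a mitochondrial sterol hydroxylase, fell by 0.40 ± 0.09 (adjusted p = 0.00722), while the vitamin D carrier Gc (-0.15 ± 0.07) and the hydroxylase Cyp2r1 (-0.17 ± 0.12) were not called.

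Among the steroid and estrogen-related receptors Esrra was the only gene called. Esrra (chr19:6910977-6921813, minus strand) encodes an orphan receptor that works with the PGC-1 coactivators on mitochondrial genes. It measured 46.0, 44.4, 55.2, 46.1 and 45.9 CPM in control ASO and 40.7, 43.4, 38.2, 42.7 and 39.4 CPM in Mboat7 ASO livers. The groups did not overlap, but by a margin of about 1 CPM, and control replicate 3 stood above the rest. The log2 fold change was -0.22 ± 0.07 (edgeR adjusted p = 0.0241). The call was lost without Mboat7 ASO replicate 8 (adjusted p = 0.0578), without replicate 10 (adjusted p = 0.0567) and without normalization factors (-0.06). Esrra overlaps Trmt112, a methyltransferase subunit, by 73 exonic bases on the opposite strand, and Trmt112 fell by 0.51 ± 0.10 (adjusted p = 0.00489).

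Esrrg, the related gamma receptor, had a log2 fold change of 0.34 ± 0.27 (adjusted p = 0.341), with libraries from 2.86 to 6.69 CPM in control ASO and from 3.36 to 7.42 CPM in Mboat7 ASO livers. Of 10 target genes of these receptors and PGC-1, 3 fell (30%, against 17.3% of all genes) and none rose, and the median was -0.08. With the length trend removed 1 fell, beside 14.7% of all genes. Without normalization factors 1 fell and 3 rose, beside 6.1% and 37.1% of all genes. Sdhb, a subunit of succinate dehydrogenase, fell from 236 to 182 CPM (-0.38 ± 0.07, edgeR adjusted p = 0.00322). Uqcrfs1, the Rieske subunit of the cytochrome bc complex, fell by 0.25 ± 0.06 (adjusted p = 0.00887), and Cycs, cytochrome c, by 0.31 ± 0.11 (adjusted p = 0.0438). Gabpa, a transcription factor of mitochondrial genes, was not called (0.13 ± 0.07).

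The glucocorticoid receptor gene Nr3c1 was among the steadiest, at 90.3 ± 3.34 CPM in control ASO and 90.6 ± 4.86 CPM in Mboat7 ASO livers (SD, n = 5; log2 fold change 0.01 ± 0.05). Nr3c2, the mineralocorticoid receptor, had a log2 fold change of 0.27 ± 0.12 (edgeR test, adjusted p = 0.0915). Esr1, the estrogen receptor alpha, had one of -0.24 ± 0.21 (adjusted p = 0.393) and overlapping libraries from 12.3 to 25.3 CPM over both groups. Of 12 genes of glucocorticoid activation and response 1 rose and 1 fell, 8.33% each way against 21.2% and 17.3% of all genes. Without control replicate 4, 2 rose, beside 18.4% of all genes. Without control replicate 2 or Mboat7 ASO replicate 9 or 10, 2 fell, beside 18.4%, 16% and 12.9% of all genes. Hsd11b1, which regenerates active glucocorticoid inside cells, fell from 710 to 442 CPM without overlap (-0.68 ± 0.13, adjusted p = 0.00337). Zbtb16, a zinc finger factor induced by glucocorticoids, rose from 5.20 to 36.4 CPM with overlapping groups (2.81 ± 0.58, adjusted p = 0.00496). The response genes Dusp1 (-0.90 ± 0.35, adjusted p = 0.0611) and Sgk1 (0.56 ± 0.26, adjusted p = 0.104) were not called.

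Among the receptors, Nr2f6 had the lowest adjusted p. Nr2f6 (chr8:71374123-71381960, minus strand) measured 82.8, 64.2, 71.6, 61.1 and 61.4 CPM in control ASO and 51.9, 51.6, 46.5, 53.8 and 53.4 CPM in Mboat7 ASO livers. Every Mboat7 ASO library lay below every control library, the control libraries were the more spread, and replicate 8 was the lowest. The log2 fold change was -0.41 ± 0.09 (edgeR adjusted p = 0.00539), a mean fold of 0.754, and it passed after removal of the length trend (-0.33) and, at -0.25, without normalization factors (adjusted p = 0.0371). Of the 2983 exonic bases of Nr2f6, 1622 are shared with Ocel1 on the opposite strand, so the Nr2f6 values are uncertain. Ocel1 itself was not called (-0.25 ± 0.13, adjusted p = 0.144).

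The other orphan receptors of the Nr2 group were not called. Nr2f2, a COUP factor known from vessels and liver, had a log2 fold change of -0.16 ± 0.07 (edgeR test, adjusted p = 0.0972), and the related Nr2f1 one of 0.60 ± 0.29 (adjusted p = 0.118) on 10 to 32 counts per library. Nr2c1 and Nr2c2, the testicular receptors, had log2 fold changes of 0.03 ± 0.11 and 0.15 ± 0.08 (adjusted p = 0.827 and 0.156). Nr2c2 shares 4590 of its 14935 exonic bases with Mrps25 on the opposite strand, so its value is uncertain.

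Nr4a3 had the highest estimate of the group and the fewest counts of the genes tested in it, and it was tested only because Mboat7 ASO replicate 6 reached 1 CPM. Nr4a3 (chr4:48045153-48086447, plus strand) belongs with Nr4a2 to a receptor family whose genes are switched on quickly by stress and hormonal signals. Its raw counts were 1, 8, 1, 5 and 3 in control ASO and 35, 24, 20, 10 and 7 in Mboat7 ASO livers. That is 0.0382, 0.318, 0.043, 0.187 and 0.114 CPM against 1.10, 0.906, 0.717, 0.367 and 0.230 CPM. Control replicate 2 exceeded Mboat7 ASO replicate 10, so the groups overlapped. Its fitted log2 fold change was 2.20 ± 0.58 (edgeR adjusted p = 0.0135), and as the gene entered through the group where it was high, this call is given as a description. With no filter on low counts the estimate was the same (adjusted p = 0.0133). Without Mboat7 ASO replicate 6 the gene no longer reached 1 CPM in any library and was not tested, and without each of the others it stayed between 1.97 and 2.72. The leukocyte marker sum, in the same order of replicates, was 116, 189, 123, 140 and 128 CPM in control ASO and 471, 363, 380, 179 and 207 CPM in Mboat7 ASO livers. The libraries highest in Nr4a3 within each group were thus also high in leukocyte markers, of which 10 of 12 rose, and the part of leukocytes in this change was not tested.

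Nr4a2 had a log2 fold change of 0.77 ± 0.29 (edgeR test, adjusted p = 0.0572). It passed in DESeq2 (0.76, adjusted p = 0.0422), without control replicate 2 (0.94) and without Mboat7 ASO replicate 7 (0.91). The same held without libraries 2 and 9 together and without a normalization factor (0.93, edgeR adjusted p = 0.0284), where 37.1% of all genes were higher. Nr6a1, a receptor of germ cells and embryos, had a log2 fold change of -0.18 ± 0.09 (adjusted p = 0.143). It passed when the length trend was removed (-0.36, adjusted p = 0.0205), as did Nr2f2 (-0.29, adjusted p = 0.0207). Rora, a driver of clock and lipid genes, had one of 0.11 ± 0.07 (adjusted p = 0.214). Of 9 ROR target genes tested 2 fell (22.2%, near the 17.3% of all genes) and none rose, with a median of -0.31 and a median exonic length of 2.17 kb. This count was 0 with the length trend removed, without normalization factors, and without control replicate 1, 3 or 5 or Mboat7 ASO replicate 7 or 10. It was 1 without any other single library except control replicate 4. Over all genes 14.7% were lower with the length trend removed and 6.1% without normalization factors. Leaving out single libraries gave 12.6% to 18.4% of all genes lower. Nr1d1, the clock repressor, fell by 0.47 ± 0.16 (adjusted p = 0.043) and Cyp8b1, which sets the kind of bile acid made, fell by 0.50 ± 0.18 (adjusted p = 0.0469). The clock gene Arntl (-0.56 ± 0.25) and the fatty acid elongase Elovl3 (-0.74 ± 0.37) were not called.

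**Figure D3:**
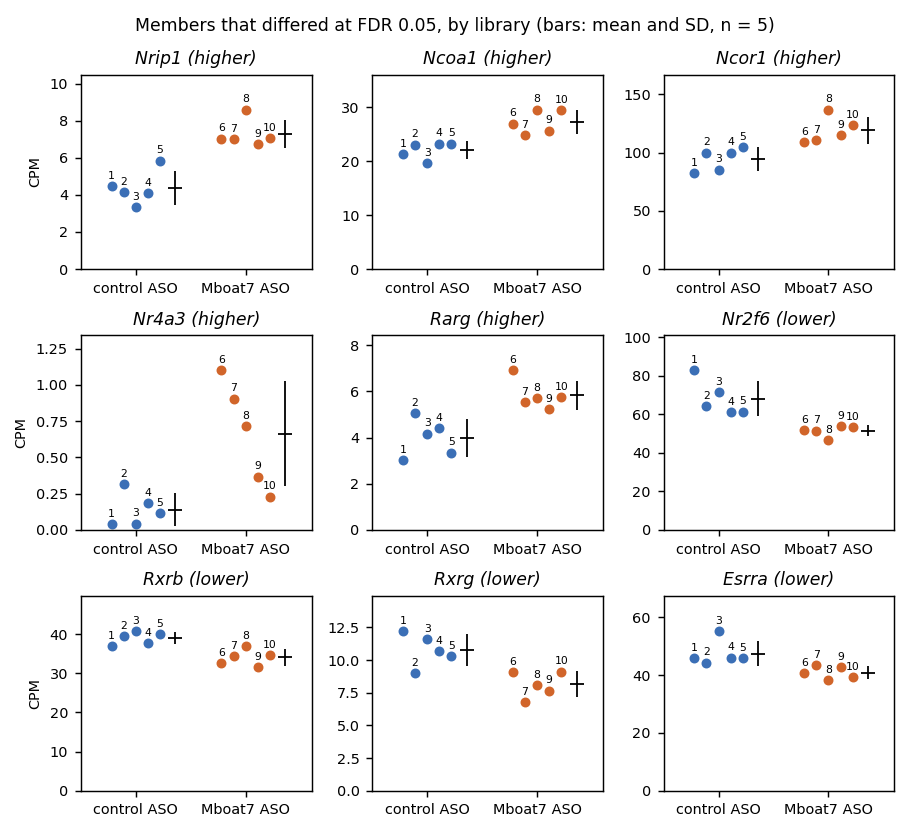
CPM of the 9 genes called at an edgeR FDR of 0.05 in each library (points, numbered by replicate; blue control ASO, orange Mboat7 ASO), with the mean and SD of 5 libraries beside them, every axis starting at 0. Nr4a3 and Rxrg overlap between groups, and the other 7 do not.

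All 6 coregulators had positive log2 fold changes, from 0.08 to 0.73 with a median of 0.25, and Nrip1, Ncor1 and Ncoa1 rose. That was 50% of them, against 21.2% of all genes, and 6464 of all 12609 genes were positive. The coregulators were long, with a median exonic length of 10.02 kb against 4.44 kb. Among the longest genes tested (median 9.88 kb), 37.1% were higher. With the length trend removed Nrip1 and Ncoa1 kept their calls, Ncor1 lost its call (0.13, edgeR adjusted p = 0.156) and Ncoa2 was at -0.06. Nrip1 (chr16:76287400-76373827, minus strand) encodes RIP140, a ligand-dependent corepressor known for its part in fat and energy metabolism. It measured 4.47, 4.17, 3.35, 4.11 and 5.85 CPM in control ASO and 7.03, 7.02, 8.60, 6.75 and 7.08 CPM in Mboat7 ASO livers. The Mboat7 ASO libraries were tightly grouped apart from replicate 8, and all lay above the controls. The log2 fold change was 0.73 ± 0.14 (edgeR adjusted p = 0.00397), a mean fold of 1.66. Nrip1 and Nr4a3 were the only genes of the group that rose when a change of over 1.5-fold was required of the estimate, and none fell by that much.

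Ncor1 (chr11:62316426-62458541, minus strand), the scaffold of the main nuclear receptor corepressor complex, measured 82.6, 100, 85.4, 100 and 105 CPM in control ASO and 109, 111, 137, 115 and 124 CPM in Mboat7 ASO livers. The groups were close but did not overlap, and replicate 8 was again the highest. Ncor1 rose by 0.33 ± 0.09 on the log2 scale (edgeR adjusted p = 0.0133). Ncoa1 (chr12:4247362-4477182, minus strand), a steroid receptor coactivator, measured 21.3, 23.1, 19.6, 23.3 and 23.3 CPM in control ASO and 27.0, 24.8, 29.6, 25.7 and 29.5 CPM in Mboat7 ASO livers. Every Mboat7 ASO library lay above every control library. Ncoa1 rose by 0.31 ± 0.07 on the log2 scale (edgeR adjusted p = 0.00753).

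The coactivators related to Ncoa1 did not pass. The log2 fold change was 0.17 ± 0.07 for Ncoa2 (edgeR adjusted p = 0.0669) and 0.19 ± 0.09 for Ncoa3 (adjusted p = 0.12). Ncoa1 made up 28.2% ± 1.27 of the summed CPM per kb of these 3 genes in control ASO and 29.9% ± 1.66 in Mboat7 ASO livers (SD, n = 5). Ppargc1b, the PGC-1beta coactivator of mitochondrial and lipid genes, had a log2 fold change of 0.08 ± 0.12 (adjusted p = 0.633). That a coregulator passed and another did not was not tested as a difference between them. On the opposite strand Ncoa3 shares 154 exonic bases with Sulf2, and Ncor1 shares 82 with Pigl.

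Of 10 other corepressor genes 3 rose (30%, against 21.2% of all genes) and none fell, with a median of 0.04. Tbl1x, a subunit of the NCOR1 complex, rose from 12.9 to 19.1 CPM (0.57 ± 0.07, edgeR adjusted p = 0.00134), Rcor1, a partner of the demethylase KDM1A, by 0.55 ± 0.11 (adjusted p = 0.00483), and Lcor, a ligand-dependent corepressor, by 0.75 ± 0.16 (adjusted p = 0.005). Gps2, also a subunit of the NCOR1 complex, was not called (-0.25 ± 0.10, adjusted p = 0.0746). Of 18 other coactivator genes 4 rose (22.2%, near the 21.2% of all genes) and none fell, with a median of 0.14 and a median exonic length of 8.64 kb. With the length trend removed 2 rose and 1 fell, beside 17.3% and 14.7% of all genes. Without normalization factors 10 rose, beside 37.1% of all genes. Without control replicate 4 it was 7, beside 18.4% of all genes. The 4 were Ncoa7 (1.33 ± 0.26, adjusted p = 0.00422), the acetyltransferase Crebbp (0.48 ± 0.11, adjusted p = 0.00815), the methyltransferase Nsd1 (0.19 ± 0.05, adjusted p = 0.0165) and the Mediator subunit Med12 (0.21 ± 0.06, adjusted p = 0.0239).

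Among 16 further nuclear receptors tested 2 rose and 2 fell, 12.5% each way, below the shares of all genes (21.2% and 17.3%). Lower calls were 0 with the length trend removed, without normalization factors and without control replicate 1 or 3 or Mboat7 ASO replicate 9 or 10, and 1 without control replicate 2 or 5 or Mboat7 ASO replicate 7 or 8. Higher calls were 1 with TMM or RLE and without control replicate 1, 2 or 3 or Mboat7 ASO replicate 7 or 8. They were 5 without normalization factors, beside 37.1% higher and 6.1% lower over all genes. TMM and RLE gave 20.1% and 20.5% of all genes higher, and removal of the length trend 14.7% lower. Leaving out single libraries gave 15.8% to 24.5% of all genes higher and 12.6% to 18.4% lower. Nr1h5, a bile acid receptor relative, rose by 0.68 ± 0.13 (edgeR adjusted p = 0.00422) and Ppara, the receptor of fatty acid oxidation, by 0.27 ± 0.10 (adjusted p = 0.0432). Nr1h2, the liver X receptor beta and like Rxrb expressed in most cells, fell by 0.20 ± 0.06 (adjusted p = 0.0284), and Nr1d1 was the other gene that fell.

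**Figure D4:**
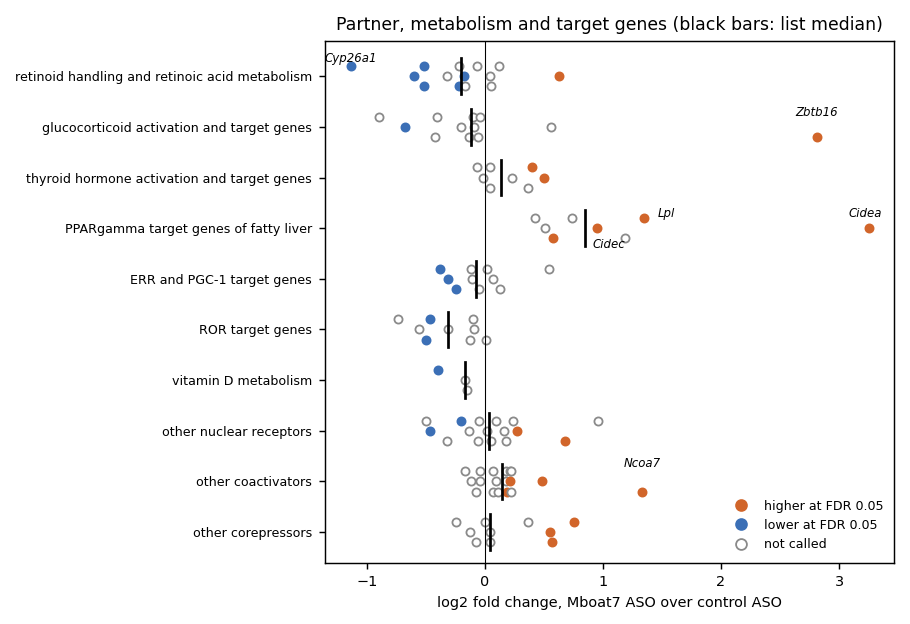
Log2 fold change of each tested gene of 10 lists of metabolism, target, receptor and coregulator genes, Mboat7 ASO over control ASO (n = 5 per group). Orange points were higher and blue points lower at an edgeR FDR of 0.05, open points were not called, and black bars mark list medians, from -0.31 for ROR targets to 0.85 for PPARgamma targets.

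Fold change followed exonic length over all genes, and these genes are long. Their median exonic length was 6.1 kb, against 4.44 kb over all genes tested, and it was 8.58 kb for the 5 genes that rose and 3.48 kb for the 4 that fell. Among the 20% of genes with the shortest exonic length (median 1.78 kb) 10.8% were higher and 35.2% lower, and among the 20% with the longest (median 9.88 kb) 37.1% were higher and 4.98% lower. The longest 20% held Nrip1, Ncor1 and Ncoa1, the 3 coregulators that rose, among 11 genes of the group, and none of the 11 fell. After the trend was removed 4 of the 30 genes were higher and 5 lower, beside 17.3% and 14.7% of all genes. Ncor1 was then at 0.13 (edgeR adjusted p = 0.156), and Ncoa2 at -0.06, so the coregulators were no longer all positive. Ncoa1 was at 0.18, just inside the threshold (adjusted p = 0.0454), and Nrip1 was at 0.55 (adjusted p = 0.0112).

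**Figure D5:**
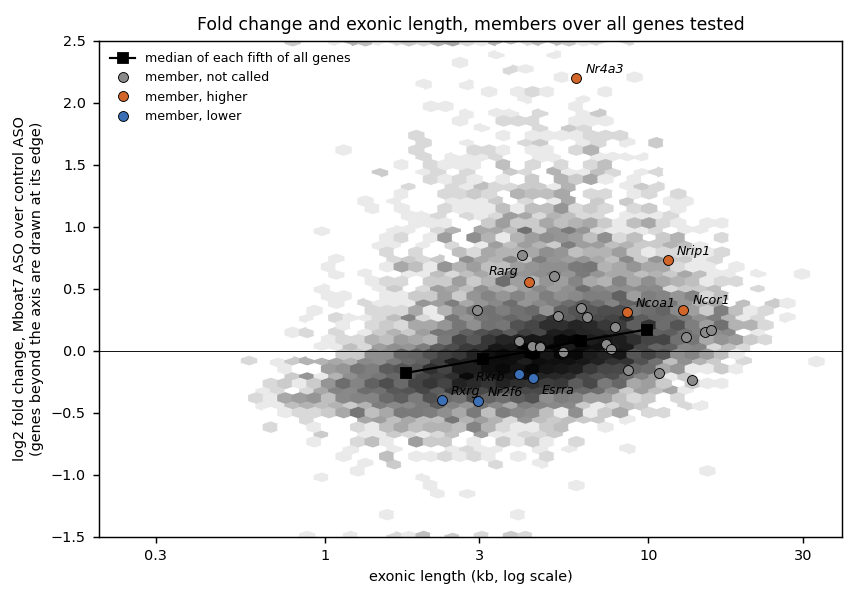
Log2 fold change of Mboat7 ASO over control ASO livers against exonic length in kb (log scale) for all genes with a known length (grey, darker where genes are denser; genes beyond the axis are drawn at its edge), with the 30 receptors and coregulators (members) as circles. Black squares, the medians of 5 equal bins of all genes, climb from -0.18 to 0.17, and the orange circles of Nrip1, Ncor1 and Ncoa1 lie at the long end.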

How the data were processed

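Liver RNA was sequenced as 50 bp single-end reads. Per the submitters' processing notes and the study's methods, reads were trimmed with Trim Galore 0.3.3, checked with FastQC 0.11.3 and aligned to mm10 (GRCm38) with STAR in its gene counting mode. The authors deposited raw counts per gene symbol, not normalized. Which strand was counted is not given in the sources that were read, so genes overlapping on opposite strands have uncertain values. A further 10 columns of per-sample values matched no sample and were not used.

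Genes at 1 CPM in at least 1 library were kept (12609 of 24411), normalized by upper quartile and tested with edgeR 4.0.16 (quasi-likelihood, no covariate, Benjamini-Hochberg FDR over all genes kept) in R 4.3.3. Fold changes are Mboat7 ASO over control ASO ± SE, printed CPM are scaled by the upper-quartile factors, and marker sums used a 2-sided exact permutation test over 252 label assignments (smallest p 0.00794). Pairs of libraries within a group gave chi-square values of 20.1 to 79.2 per degree of freedom, and each library was taken as 1 replicate. The labels do not name the mouse behind each library, so a p-value measures only the spread between libraries. Coordinates and lengths are from GENCODE M21. Promoters are RefSeq windows from 250 bases before to 50 bases after a start.

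The genes and lists were chosen with earlier results of these data known. Named were all 32 genes, with every library's value for those called or of lowest p in their class, and up to 4 genes of lowest p in each list. Cyp26a1, Lrat, the markers Alb, Apob and Spp1, 4 uncalled PPARgamma targets and the overlapping neighbours were named after their values were seen. The value of 1 gene of these lists is not reported here. Counts were simulated for this comparison over 12378 genes, with 67 genes changed 1.5-fold, 67 changed 2-fold and 66 changed 4-fold. The edgeR step called 67.2%, 88.1% and 100% of these, and 3.95% of its calls were unchanged genes. Far more genes were called in the real comparison (2667 higher and 2184 lower), so these rates need not hold there. Alternatives changed the normalization, the filter, the tool (DESeq2 1.42.0, limma-voom 3.58.1), the fold threshold and the length trend, or left out libraries.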

Additional observations from a re-analysis of the deposited data

Results flagged for a closer look

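In 6 of the 60 groups of 5 libraries examined (30 genes, both groups), the highest or lowest library was separated from the others. Its gap to the nearest of them was more than 0.71 of the group's range, both taken on log2 CPM. Chance gives about 1 in 20 such groups. Mboat7 ASO replicate 8 was the library concerned in 3 of them. It had the highest Nrip1, the RIP140 corepressor, at 8.60 CPM where the other 4 libraries had 6.75 to 7.08 CPM. It also had the lowest Nr2f6 at 46.5 CPM (others 51.6 to 53.8 CPM) and the lowest Rara, the retinoic acid receptor alpha, at 26.0 CPM (others 31.0 to 32.6 CPM). Rara had a separated library among the controls too, since control ASO replicate 1 had 33.5 CPM and the others 28.4 to 29.3 CPM. Esrra was at 55.2 CPM in control ASO replicate 3 and at 44.4 to 46.1 CPM in the other controls. Nr6a1 was at 9.89 CPM in Mboat7 ASO replicate 6 and at 11.7 to 12.2 CPM in the others.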

How the results depend on the processing

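The 5 receptors and coregulators that rose and the 4 that fell stayed 5 and 4 with TMM, RLE, limma-voom and no filter on low counts, were 6 and 4 with DESeq2, and were 4 and 4 with at least 1 CPM in 5 libraries, where Nr4a3 was not tested. Without a normalization factor 15 rose and 1 fell, beside 37.1% and 6.1% of all genes. The median of all genes then moved to 0.169 and the share of calls that were higher went from 55.0% to 85.9%. A threshold of 1.5-fold left 2 and 0, beside 11.6% and 2.47% of all genes. Leaving out libraries 2 and 9 together gave 8 higher (Rarb, Pparg and Nr4a2 in addition) and 3 lower (Rxrb at an edgeR adjusted p of 0.0503). Over all genes 24.1% were then higher and 17.5% lower. Leaving out single libraries gave 5 to 8 higher and 3 to 5 lower, with 8 higher and 5 lower without control ASO replicate 2. Calls over all genes also rose without that library, to 24.5% higher and 18.4% lower. Among genes not called, some signs changed. The values of these genes with all libraries and upper-quartile normalization were as high as 0.17 ± 0.07 for Ncoa2 and 0.15 ± 0.08 for Nr2c2. Nr3c1 was at -0.01 with TMM, RLE and DESeq2, -0.11 with the length trend removed and -0.02 without libraries 2 and 9, and Rxra was at 0.15 without a normalization factor (adjusted p = 0.039). With the length trend removed Ppard was at -0.07, Thrb -0.06, Nr2c2 -0.07, Rora -0.09 and Ncoa2 -0.06. Over single libraries left out, the log2 fold change ran from -0.03 to 0.10 for Thrb, -0.02 to 0.03 for Nr3c1, -0.03 to 0.01 for Rxra, -0.08 to 0.08 for Nr2c1 and -0.01 to 0.07 for Ppard. Over all settings 536 values of single genes kept their direction and their side of the threshold, 21 gained a call, 15 lost one and 24 changed sign. The causes were not tested. No paired analysis was possible because the groups share no replicate number. At these depths 1 count in the smallest library was 0.0398 CPM, so Vdr and Nr0b1 could not be compared.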
